A study of Homo sapiens with 8 samples.

Results

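The genes described here encode the subunits of the proteasome, its activators and the factors that assemble it. They were chosen by symbol: every region whose transcripts map to a protein-coding gene with a name that starts with PSMA, PSMB, PSMC, PSMD, PSME, PSMF or PSMG, plus POMP, ADRM1, UCHL5, USP14 and SEM1. This gave 56 of the 20165 regions and 55 symbols. PSMC3IP and PSME3IP1 share only the first letters of their names with the family and were set apart, which left 53 proteasome genes. Of these, 50 had enough counts to be tested in both comparisons. PSMA8, the testis form of a core subunit, and PSMB11, the thymus form of another, had 0 counts in all 8 libraries, which allows up to 3 counts per library. The 2 regions of PSMG3, a core assembly factor, have a coding length of 0 in the deposited counts and between 0 and 9 exon counts per library, so PSMG3 could not be measured.

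Ribosome profiling (Ribo-seq) sequences the pieces of mRNA that ribosomes protect from RNase, and the counts used here are those over coding sequences. All 8 libraries are of OVCAR3 cells, an established human ovarian carcinoma line, in 4 groups of 2. In one experiment, cells received 30 nM control siRNA (siControl) or 30 nM siRNA against TARG1 (siTARG1), the hydrolase that removes mono-ADP-ribose, encoded by OARD1. In the other, stably transduced and selected cells were given 1 µg/ml doxycycline, which at once induced an shRNA against their own RACK1 and HA-tagged RACK1, which was wild type in RACK1-WT cells and lacked its acceptor sites for mono-ADP-ribose in RACK1-Mut cells. The shRNA and the doxycycline were thus common to RACK1-WT and RACK1-Mut. Cells of every group were harvested at 48 h. The replicates are described as independent biological samples, but with 2 per group the spread is poorly known.

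The proteasome degrades proteins that carry ubiquitin chains. Its core particle is a barrel of alpha and beta rings, and PSMB5, PSMB6 and PSMB7 are the beta subunits that cut peptides. In cells exposed to interferon, PSMB8, PSMB9 and PSMB10 can take their places and form the immunoproteasome, which favours peptides that fit MHC class I. The cap unfolds substrates with a ring of PSMC ATPases, receives ubiquitin chains through its base, and removes them with its lid and with the attached deubiquitinases USP14 and UCHL5. POMP and PSMG1 to PSMG4 build the core, whereas PSMD5, PSMD9 and PSMD10 guide assembly of the cap base. NFE2L1, a transcription factor, raises proteasome genes together when degradation fails, through antioxidant response elements that NFE2L2 can also bind.

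Depth set the precision of these values. Coding counts per library ranged from 3100947 to 6604190. The siControl and siTARG1 libraries had similar totals, replicate 1 deeper than replicate 2 in each, whereas the RACK1-WT libraries were deeper than the RACK1-Mut libraries. OARD1 counts were 121.3 and 69.14 in siControl and 5.827 and 6.747 in siTARG1 after normalization (log2 fold change -3.94, adjusted p = 9.31e-11 by DESeq2), as the label of the knockdown says. The 10 epithelial and ovarian markers summed to between 28000 and 78400 counts per library, against 68 to 284 for 7 markers of blood, vessel and stromal cells. Most of the latter came from COL1A1 (58 to 231 raw counts per library) and CD14 (5 to 50), while CD3E and CDH5 were at 0 in all libraries. In siTARG1, 2 of the 10 markers rose and 4 fell: KRT8 (log2 fold change -1.03), KRT18 (-1.24), WT1 (-1.15) and KRT19 (-0.31) were lower, and CDH1 (1.64) and KRT7 (0.47) higher. Their part in the proteasome results was not tested.

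In siTARG1 cells, a small group of proteasome genes passed the test, in both directions. Of these calls, only those of USP14 and PSME4 held with each library left out. Footprints of the deubiquitinase USP14, the nuclear activator PSME4 and the assembly chaperone PSMD5 fell to between 56.1% and 65.7% of siControl, and those of the immunoproteasome subunit PSMB9 and the core chaperone PSMG1 rose to 230% and 154%. The catalytic subunits PSMB5, PSMB6 and PSMB7 did not pass the test, nor did POMP, PSME1 or PSME2. DESeq2 called 11 of the 50 members at an adjusted p under 0.05, 3 higher and 8 lower. Over all 12056 genes tested 16.4% were called, 7.18% higher and 9.19% lower. The 50 members all average 50 or more normalized counts, and among the 8148 genes that do so, 22.0% were called, as were 22.0% of the members. The share of members called was therefore that of all genes above this floor, which does not match the members' counts more closely. Of the 50 members, 31 lay below siControl (62.0%), against 49.6% of all genes tested. The median log2 fold change of the members was -0.06, against 0.00 for all genes.

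**Figure D1:**
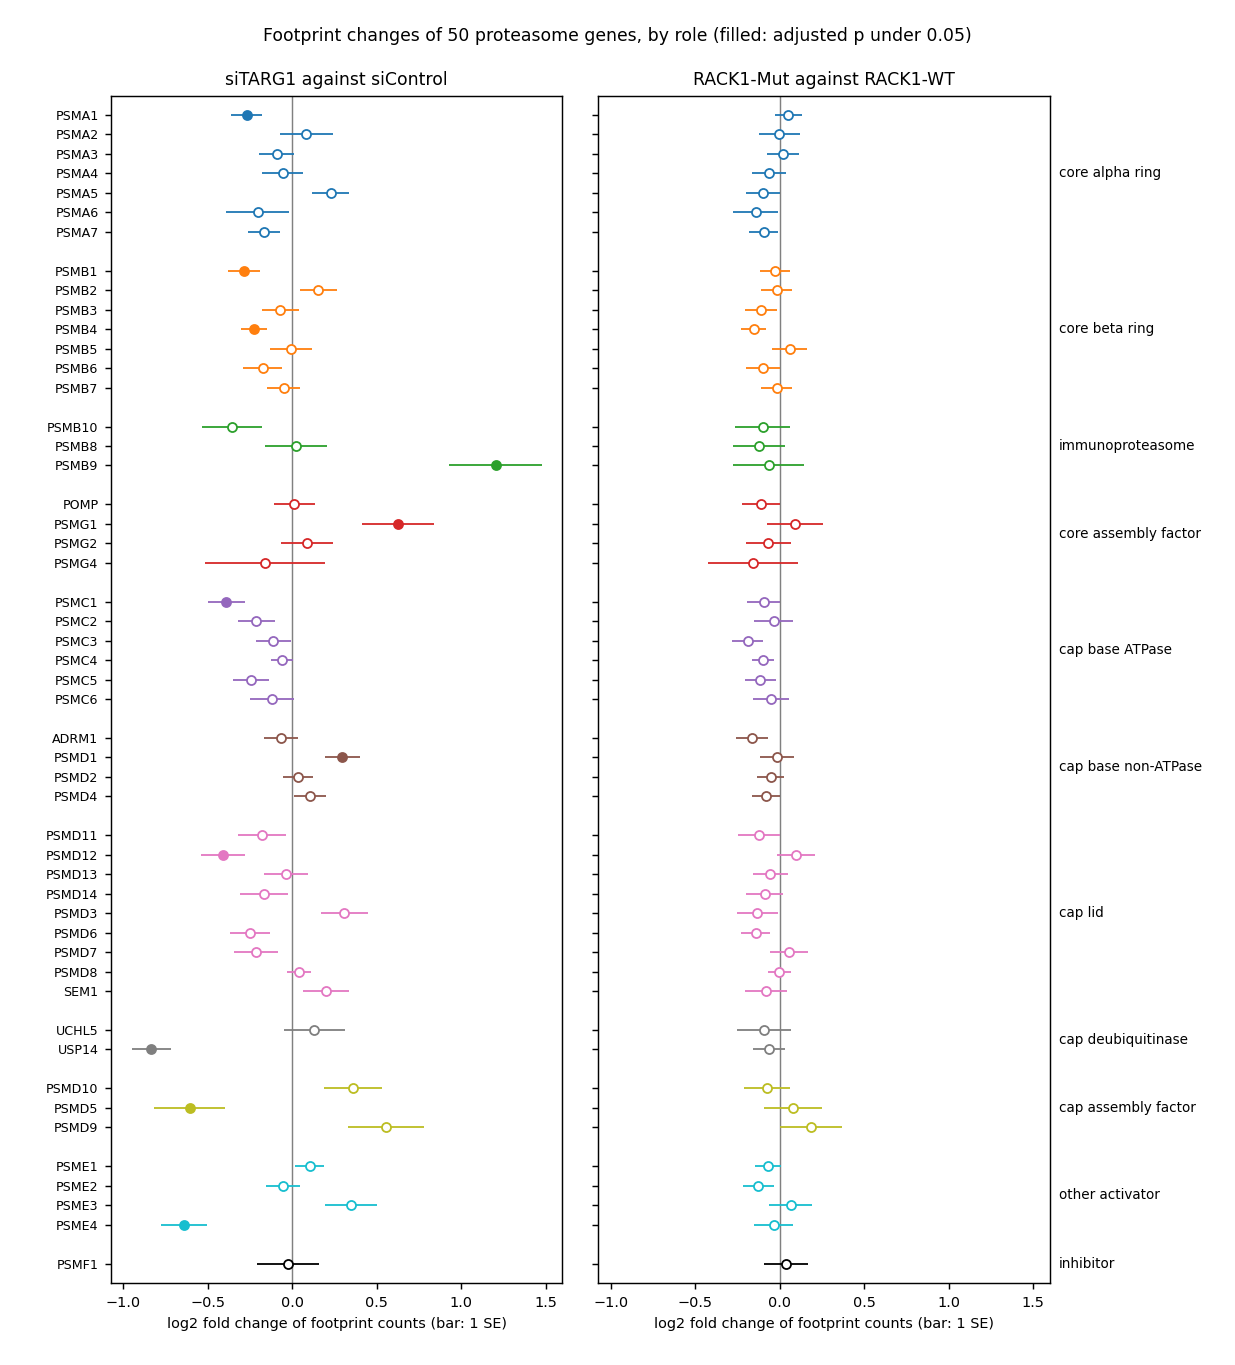
Log2 fold change of footprint counts (x axis, bar 1 SE) for 50 proteasome genes, one row each, grouped by role, in siTARG1 against siControl (left) and RACK1-Mut against RACK1-WT (right). Filled points have an adjusted p under 0.05: 11 members on the left, from USP14 at -0.83 to PSMB9 at 1.20, and 0 on the right, where all values lie between -0.19 and 0.19.

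USP14 lies at chr18:158383-214629 on the plus strand (GRCh37) and trims ubiquitin chains on substrates held at the cap. It had 932.5 and 1067 normalized counts in siControl and 559.3 and 560.0 in siTARG1. Both siTARG1 libraries lay well below both siControl libraries, and DESeq2 put the change at -0.83 on the log2 scale (SE 0.117, adjusted p = 7.08e-11). The call held with each of the 4 libraries left out, with values from -0.94 to -0.74. UCHL5, the other deubiquitinase of the cap, had 237.3 and 234.8 counts in siControl and 269.7 and 246.3 in siTARG1. It stood at 0.13 (SE 0.182, adjusted p = 0.713), so the fall of USP14 was not seen in UCHL5, and the difference between these genes was not tested. In the RACK1 experiment USP14 had 1230 and 1157 counts in RACK1-WT and 1193 and 1092 in RACK1-Mut, groups that overlapped. The 95% interval of that log2 fold change ran from -0.25 to 0.13. A DESeq2 interaction term over the 8 libraries gave a difference between the comparisons of -0.77 (SE 0.140, adjusted p = 1.90e-06).

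PSME4 (chr2:54091206-54198130, minus strand) encodes a single-chain activator that opens the core without ubiquitin or ATP, mostly in the nucleus. Its counts were 552.0 and 568.6 in siControl and 365.4 and 352.0 in siTARG1. The groups did not overlap, the fitted change was -0.64 on the log2 scale (SE 0.138, adjusted p = 6.63e-05), and the call held without any 1 library, at -0.67 to -0.61. Its difference between the comparisons was also called, at -0.60 (SE 0.160, adjusted p = 0.00258). The other activators form rings. PSME1 and PSME2, which make the interferon-inducible ring, had log2 fold changes of 0.10 and -0.05 (adjusted p = 0.481 and 0.800). PSME3, which makes the nuclear ring, had 341.0 and 304.0 counts in siControl and 390.4 and 432.9 in siTARG1. Its value of 0.35 missed the threshold (adjusted p = 0.117) although the groups did not overlap. PSMF1, an inhibitor of the core, stood at -0.03 (SE 0.182).

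The 3 immunoproteasome subunits did not move together in siTARG1. PSMB9 (chr6:32811913-32827628, plus strand), in the MHC locus, had 68.56 and 66.75 normalized counts in siControl and 169.0 and 141.7 in siTARG1. Its annotated span takes in TAP1 and overlaps PSMB8, both on the minus strand. The siTARG1 libraries were both more than 2 times the siControl libraries, and the fitted log2 change of 1.20 (SE 0.274, adjusted p = 0.000207) was the highest of the 50 members. It rested on 56 to 203 raw counts per library. Without siTARG1 replicate 1 the value was 1.07 and no longer called (adjusted p = 0.188), nor was it without siControl replicate 1 (1.21, adjusted p = 0.0548). PSMB8 had 247.0 and 231.3 counts in siControl and 239.7 and 246.3 in siTARG1, groups that overlapped (log2 fold change 0.02, SE 0.183). PSMB10 had 281.3 and 296.8 against 227.2 and 223.8, which is lower in both siTARG1 libraries but not called (-0.36, SE 0.178, adjusted p = 0.168). For PSMB9 the difference between the comparisons was 1.28 (SE 0.310, adjusted p = 0.000740).

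Each immunoproteasome subunit replaces a set partner, so its footprint density was set against that partner. Footprint density is the number of footprints per kilobase of coding length per 1000000 coding counts. The density of PSMB9 was 9.64% and 9.01% of that of PSMB6 in siControl and 25.1% and 23.3% in siTARG1. It was 16.7% and 16.9% in RACK1-WT and 18.6% and 15.8% in RACK1-Mut. The siTARG1 values were the highest of the 4 groups and those of siControl the lowest, while RACK1-WT and RACK1-Mut overlapped. For PSMB8 against PSMB5 the share was 34.6% ± 5.0 (SD, n = 2) in siControl and 35.2% ± 2.07 in siTARG1, which overlapped. For PSMB10 against PSMB7 it was 25.7% ± 1.40 in siControl and 20.7% ± 0.716 in siTARG1, which did not. With 2 libraries a group the exact two-sided permutation test cannot go below p = 0.33, the value it gave for PSMB9 and for PSMB10 in siTARG1.

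**Figure D2:**
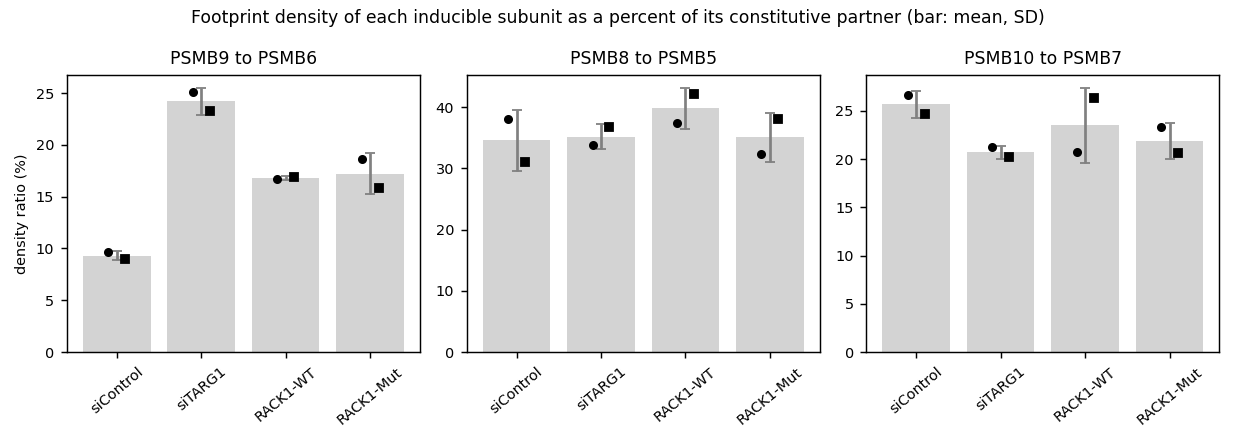
Footprint density of PSMB9, PSMB8 and PSMB10 as a percent of the constitutive subunit each replaces (y axis), in the 4 groups; bars are means of 2 libraries with the SD, circles replicate 1 and squares replicate 2. PSMB9 to PSMB6 stood at 24.2% in siTARG1 and 9.32% in siControl, whereas PSMB8 to PSMB5 lay between 34.6% and 39.8% in all 4 groups.

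Genes that work beside the immunoproteasome were taken from a list of antigen processing genes, of which 8 had a region and were tested. In siTARG1, 3 rose and 1 fell, where 16.4% of all genes tested and 22.0% of those with a mean of at least 50 counts were called. B2M, the light chain of MHC class I, had 2551 and 2611 counts in siControl and 3865 and 3622 in siTARG1 (log2 fold change 0.54, adjusted p = 1.38e-11). ERAP1, which trims peptides in the endoplasmic reticulum, rose by 0.50 (adjusted p = 0.0344), and TAPBP, which loads them, by 0.29 (adjusted p = 0.0312). STAT2, a transcription factor of the interferon response, fell by 0.32 (adjusted p = 0.0161). TAP1, the peptide transporter subunit encoded on the strand opposite PSMB9, had 214.5 and 201.5 counts in siControl and 268.0 and 255.3 in siTARG1, a value of 0.33 that was not called (adjusted p = 0.236). None of the 8 was called in RACK1-Mut, where 0.0799% of the 12520 genes tested were called.

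In the core rings 11 of 14 subunits lay below siControl in siTARG1, with 0 called higher and 3 called lower. Over all genes tested, 49.6% lay below siControl and 16.4% were called, 9.19% lower. Among the 8148 genes with a mean of at least 50 counts, 50.7% lay below siControl and 22.0% were called, 1018 genes lower. The median log2 fold change of the ring subunits was -0.08. PSMB1, a beta subunit without a cutting site, had 1318 and 1343 counts in siControl and 1123 and 1054 in siTARG1, which did not overlap (-0.29, SE 0.0949, adjusted p = 0.0180). PSMB4, another such subunit, had 2716 and 2901 against 2381 and 2421 (-0.23, SE 0.0761, adjusted p = 0.0218). These values are 81.9% and 85.5% of siControl, and neither call held with any library left out, which gave -0.34 to -0.24 for PSMB1 and -0.28 to -0.18 for PSMB4. The region of PSMA1 was called as well (-0.27, SE 0.0895, adjusted p = 0.0185; -0.35 to -0.18 with a library left out, not called). It is joined with COPB1, a coat protein gene, in the deposited counts, and its 3078 nt of coding length are mostly not those of PSMA1, so the value cannot be assigned to the proteasome. PSMA6 is joined with PRORP in the same way and was not called. The subunit that stood highest among the rings was PSMA5, at 0.23 (adjusted p = 0.148). The cutting subunits PSMB5 (-0.01, SE 0.124), PSMB6 (-0.18, SE 0.115) and PSMB7 (-0.05, SE 0.0972) were not called.

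In the cap base all 6 ATPases lay below siControl, where 49.6% of all genes tested did. For 5 of the ATPases the groups did not overlap, but only PSMC1 was called. PSMC1 had 1061 and 1197 counts in siControl and 834.9 and 887.3 in siTARG1 (-0.39, SE 0.107, adjusted p = 0.00301). Its call was lost without siControl replicate 2 (-0.31, adjusted p = 0.277), without siTARG1 replicate 1 (-0.35, adjusted p = 0.275) and without siTARG1 replicate 2 (-0.43, adjusted p = 0.0889). PSMC1 has 13 annotated pseudogenes, more than any other member, and reads that match several transcripts were kept, so its counts are uncertain. The remaining ATPases ranged from -0.25 (PSMC5) to -0.06 (PSMC4). Groups without overlap were common in this comparison, at 62.6% of all genes tested and 36 of the 50 members (72.0%). Among genes with a mean of at least 50 counts the share was 68.1%. Of the 4 other base subunits, PSMD1, the large scaffold of the base, rose. It had 840.2 and 928.6 counts in siControl and 1092 and 1073 in siTARG1 (0.29, SE 0.104, adjusted p = 0.0307), and the call was lost with each library left out (0.21 to 0.36). The ubiquitin receptors ADRM1 and PSMD4 stood at -0.07 and 0.10 and were not called.

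In the lid, 6 of 9 subunits lay below siControl, where 49.6% of all genes tested did. PSMD12 was the 1 called, where 16.4% of all genes tested were. PSMD12, a structural lid subunit, had 584.5 and 606.7 counts in siControl and 437.0 and 459.9 in siTARG1 (-0.41, SE 0.131, adjusted p = 0.0139). The groups were well apart, but the call was lost with each library left out (-0.45 to -0.37). PSMD3 stood highest at 0.31 (SE 0.139, adjusted p = 0.117), with 399.9 and 400.5 against 500.2 and 489.2. PSMD14, the metalloprotease of the lid that takes ubiquitin chains off substrates, was at -0.17 (SE 0.141) and not called.

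The assembly factors moved in both directions. PSMG1, which pairs with PSMG2 to build the alpha ring, had 138.0 and 140.7 counts in siControl and 221.4 and 206.9 in siTARG1 (0.62, SE 0.213, adjusted p = 0.0243). Its partner PSMG2 had 333.1 and 340.9 against 352.9 and 362.1 (0.09, SE 0.155, adjusted p = 0.791). POMP, which completes the core, was at 0.01 (SE 0.121), and PSMG4, the lowest counted member, at -0.16 (SE 0.354). Among the cap chaperones, PSMD5 (chr9:123577774-123605229, minus strand) had 212.7 and 227.7 counts in siControl and 144.0 and 145.1 in siTARG1 (-0.61, SE 0.210, adjusted p = 0.0262). The others went the opposite way without being called: PSMD9 was at 0.55 (SE 0.225, adjusted p = 0.0708) and PSMD10 at 0.36 (SE 0.173, adjusted p = 0.150). With each library left out, the calls of PSMG1 (0.57 to 0.68) and PSMD5 (-0.66 to -0.56) were lost.

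**Figure D3:**
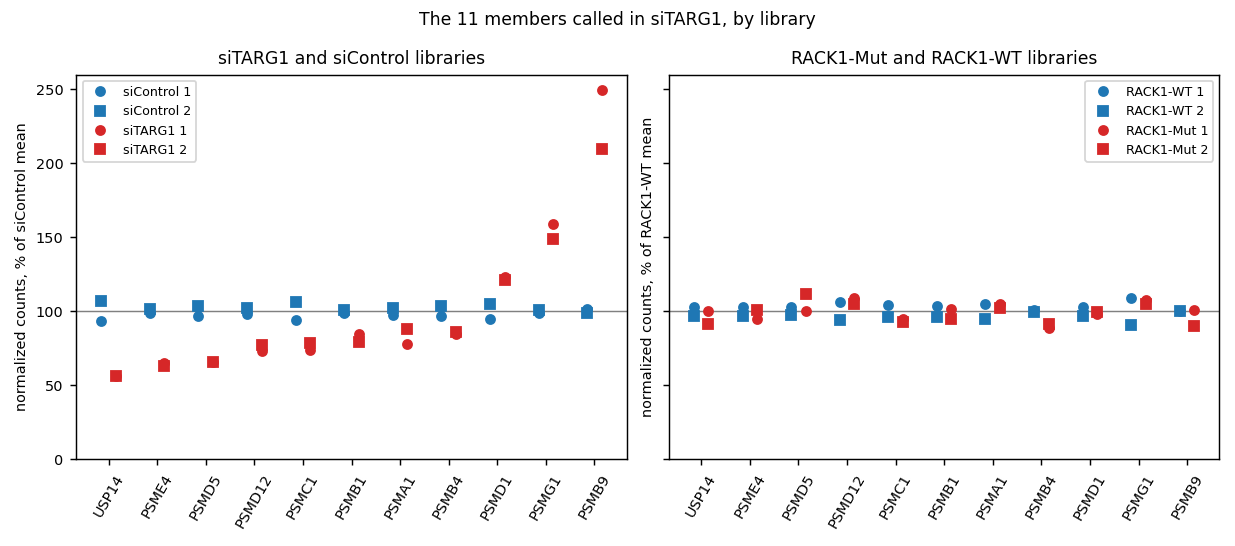
Normalized footprint counts of the 11 members called in siTARG1, each as a percent of its control mean (y axis), for the siControl and siTARG1 libraries (left) and the RACK1-WT and RACK1-Mut libraries (right); circles are replicate 1, squares replicate 2. On the left the groups are apart for every gene, from USP14 at 56.1% to PSMB9 at 230% by the fit, and on the right they lie near 100%.

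Of the regulators and delivery factors of the proteasome, 24 of 25 listed genes were tested in siTARG1. Over all genes tested 16.4% were called, and 22.0% of those with a mean of at least 50 counts. In this list 1 gene was called higher and 1 lower. These were the transcription factors NFE2L1 and NFE2L2. NFE2L1 had 1578 and 1573 counts in siControl and 1938 and 1870 in siTARG1 (0.27, SE 0.0831, adjusted p = 0.00896). NFE2L2 had 2066 and 2200 against 1585 and 1730 (-0.37, SE 0.0861, adjusted p = 0.000361). The median of the list was -0.11. DDI2, the protease that activates NFE2L1, stood at -0.47 (adjusted p = 0.137), and VCP, which extracts substrates for the proteasome, at -0.19 (adjusted p = 0.0558). In RACK1-Mut none of the 24 was called, where 0.0799% of all genes tested were.

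Because NFE2L1 and NFE2L2 bind the antioxidant response element, the promoters of the members were searched for its core, TGACNNNGC (N is any base). Both strands of the 250 bases before each start listed in RefSeq (GRCh38) were read. A gene with several starts was counted once if any of them held a match. Of 47 members with a promoter entry, 17 held a match (36.2%), against 3609 of 27305 genes with an entry (13.2%). Those 27305 include genes that were not tested here, so the shares are not of like sets. Among the 10 called members with an entry, 6 held one: PSMB9 and PSMG1, which rose, and USP14, PSME4, PSMD5 and PSMD12, which fell. Among the 35 not called, 11 did (31.4%). The matches of these 6 are shown because they are the called members on which the results above turn, with the match in capitals and 10 bases before it, read 5′ to 3′ on the gene's strand. In USP14, PSMB9 and PSME4 the match lies on the opposite strand and is printed as its reverse complement. They are at chr18:158521-158550 (USP14), chr6:32854034-32854063 (PSMB9), chr21:39183615-39183644 (PSMG1), chr2:53971008-53971037 (PSME4), chr9:120843037-120843066 (PSMD5) and chr17:67366723-67366752 (PSMD12).
USP14: tttgcgtgttGCTGCGTCAtcgccagtggc
PSMB9: gggcggggctGCCTCGTCActtgtctcggg
PSMG1: gcccagggcaTGACAGCGCgggcgggcggt
PSME4: cccggcggctGCAGCGTCAccagcagagcc
PSMD5: tggctacagtTGACACGGCcctaacggagg
PSMD12: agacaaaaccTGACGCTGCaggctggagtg
Members on both sides of siControl thus held the same core, and a match is a description of the letters, not a site. The interferon-stimulated response element was matched in 5 of 47 members (10.6%, against 3.71% of all genes with an entry), PSMB10 and PSME2 among them. PSMB4 was the 1 member called lower that held it, and 0 of the 3 that rose did. The promoter of TAP1, which faces that of PSMB9, held 2 overlapping matches at chr6:32853813-32853848, in the stretch between the listed starts of these genes but outside the 250 bases searched for PSMB9. The gamma-activated site, TTCNNNGAA, was matched in 7 (14.9%, against 8.09%), PSMB8 and PSMB5 among them, and in 0 of the 10 called members with an entry.

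The 3′ UTRs of the members were also read for 7-mers that had been picked from changed genes of these same libraries, so their shares over all genes are not independent evidence. A match to the 7-mers within TGAACATA was present in 39.1% of all genes called lower and 19.9% of all genes tested. Among the 8 members called lower it was present in 1, the joined region of PSMA1. USP14, PSME4, PSMD5, PSMC1, PSMB1 and PSMB4 had no match to either family. A match within TGAATATA was present in 49.4% of all genes called higher and 26.4% of those tested. Among the members called higher it was present in PSMG1 and absent from PSMB9 and PSMD1, and PSMD12, called lower, held it too. The PSMG1 site is at chr21:40547269-40547298 and the PSMD12 site at chr17:65336824-65336853 (GRCh37, minus strand), printed with the 7-mer in capitals.
PSMG1: attgttgtattTGAATATtttaaggtacta
PSMD12: ttttaaaatagTGAATATgtttgagactcc

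In RACK1-Mut cells no proteasome gene changed by the test. DESeq2 called 0 of 50 members, where 0.0799% of the 12520 genes tested were called, and edgeR also called 0. At an unadjusted p under 0.05 there were 2 by DESeq2, PSMC3 and PSMB4, and 3 by edgeR. By DESeq2 that is 4.0% of the members. Over all genes tested the share was 1.64%, and 2.08% among those with a mean of at least 50 counts. RACK1 itself had 23330 and 23590 counts in RACK1-WT and 17740 and 17270 in RACK1-Mut (-0.42, adjusted p = 1.34e-08), counts that sum the cells' own and the HA-tagged mRNA. The widest changes among the members were those of PSMC3, with 1697 and 1605 counts in RACK1-WT and 1353 and 1544 in RACK1-Mut (-0.19, SE 0.0936), and of PSMD9, with 192.5 and 211.6 against 252.9 and 205.7 (0.19, SE 0.186). The 95% interval lay within a 1.5-fold change in either direction for 49 of the 50 members. PSMG4 was the exception, with an interval from -0.68 to 0.36. PSMB9 had 153.8 and 153.6 counts in RACK1-WT and 155.1 and 138.4 in RACK1-Mut, an interval from -0.48 to 0.35.

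The members lay slightly below RACK1-WT as a family. Of 50, 40 had a negative log2 fold change (80.0%, against 50.4% of all genes), with a median of -0.07 against 0.00. All 6 ATPases, all 4 of the other base subunits and the 3 immunoproteasome subunits were on this side. The groups did not overlap for 21 members (42.0%), 19 of them with RACK1-Mut below, while 37.6% of all genes tested did not overlap. Among genes with a mean of at least 50 counts the share was 38.5%. The median moved to -0.02, with 30 of 50 members negative, when RACK1-WT replicate 1 was left out, and stayed between -0.09 and -0.06 when any other library was. Genes of 1 complex are not independent replicates, and a shift of this size was of the order of the gap between the RACK1-WT libraries. Around the RACK1-WT mean, the medians over the members stood at 0.03 and -0.03 in the RACK1-WT libraries. In the RACK1-Mut libraries they stood at -0.062 and -0.059, below both.

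Whether a member responded differently in the 2 experiments was asked of all 8 libraries by an interaction term. By DESeq2, 12.3% of all 12955 genes tested were called, and 17.2% of the 8685 genes with a mean of at least 50 counts. Of the 50 members 7 were called, a share between these values. Those higher in siTARG1 than in RACK1-Mut were PSMB9 and PSMD3 (0.45, SE 0.163, adjusted p = 0.0443), and those lower were USP14, PSME4, PSMD5 (-0.68, SE 0.239, adjusted p = 0.0363), PSMD12 (-0.50, SE 0.156, adjusted p = 0.0132) and the PSMA1 region (-0.32, SE 0.114, adjusted p = 0.0430). Leaving out RACK1-WT replicate 2 left 2 of the 7, and leaving out any other library left 3 to 5. PSMC1, PSMB1, PSMB4, PSMD1 and PSMG1, called in siTARG1, were not called for the difference.

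Levels of the members can be compared per length. The tested genes had a median footprint density of 16.2 over the 8 libraries, and the 48 members whose region is not joined with another named gene ranged from 22.8 (PSME4) to 1090 (PSMC4). The regions of PSMA2, PSMB10 and PSMD9 among them are joined with an unnamed read-through gene, so their coding lengths, and the densities set on them, are less certain. In siControl the 12 core ring subunits counted this way, PSMA2 included, had medians of 339 and 354. The rings hold each subunit in equal number, yet their densities varied by 34.2% to 51.9% (coefficient of variation), with PSMB4 highest in all 8 libraries at 655 to 987. The immunoproteasome subunits lay below the subunits they replace, and PSMB9 was at 27.7 ± 0.511 (SD, n = 2) in siControl.

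Some cap subunits stood far above their neighbours. PSMC4 had a density of 1310 and 1280 in siControl, where the 6 ATPases had medians of 207 and 209, and was 4.80 to 7.34 times the ATPase median across the 8 libraries. PSMD8 in the lid stood at 889 and 912 in siControl, against lid medians of 132 and 146. SEM1, the shortest member at 213 nt, was at 808 on average in siControl. The low end of the lid was PSMD3 in all 8 libraries. The 6 assembly factors other than POMP ran from 39.3 (PSMD5) to 115 (PSMG2) in siControl, with PSMG1 at 43.5 and PSMD10 at 96.4, while POMP, which is used up with each core it completes, was at 392.

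**Figure D4:**
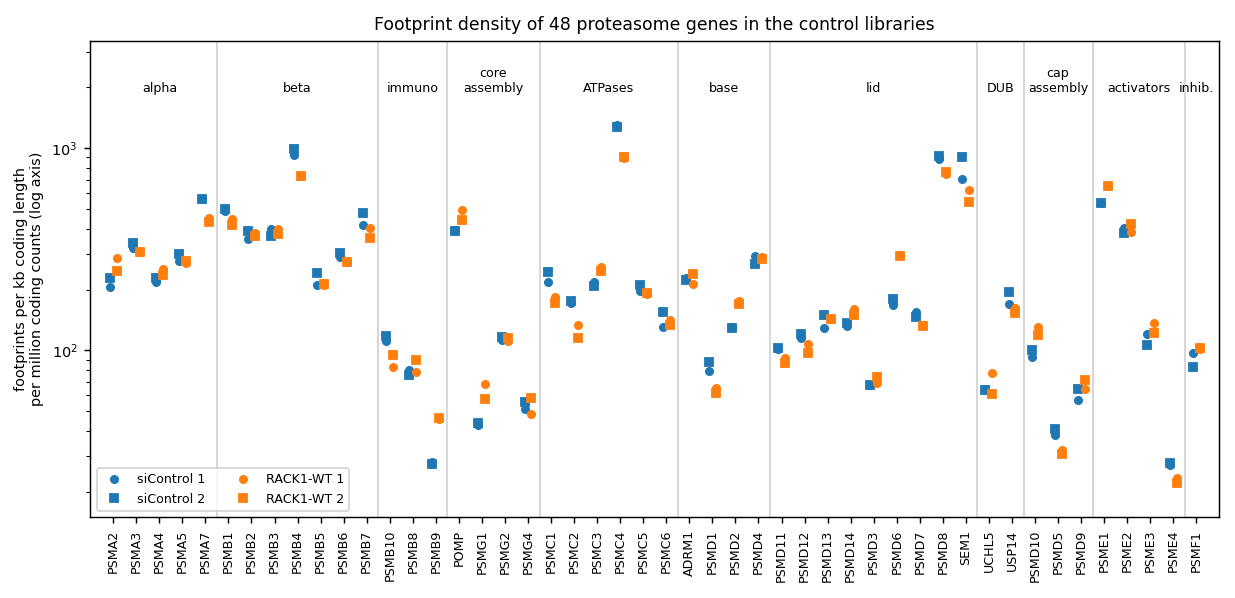
Footprint density (footprints per kilobase of coding length per 1000000 coding counts, log axis) of 48 proteasome genes, grouped by role, in the siControl and RACK1-WT libraries; circles are replicate 1 and squares replicate 2. PSMC4, PSMB4 and PSMD8 stand highest, and PSMB9, PSME4 and PSMD5 lowest.

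The control groups of the experiments also differed for a few members. With all 8 libraries normalized together, PSMD6, a lid subunit, had 848.8 and 901.9 counts in siControl and 1495 and 1457 in RACK1-WT, a ratio of 1.69. PSMB9 had 79.86 and 77.83 in siControl and 130.3 and 129.9 in RACK1-WT, a ratio of 1.65. The opposite was seen for PSMC4, with 7108 and 6911 in siControl and 4864 and 4858 in RACK1-WT (0.693). The median ratio over the 50 members was 0.990 and over 8685 genes with a mean of at least 50 counts 0.983. A ratio over 1.5 was seen for 2 of the 50 members and for 1352 of those 8685 genes, so such differences were not particular to the members. Transduction and selection, the shRNA and re-expressed RACK1, doxycycline and siRNA transfection differ between these groups and cannot be told apart, so no test was made.

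Footprints of the members lay almost wholly in coding sequence. The 5′ UTR held 0.631% to 0.884% of the members' exon counts in each library, against 3.81% to 4.29% over all genes, and the 3′ UTR 0.126% to 0.322%, against 0.659% to 1.85%. Treated and control libraries overlapped in both experiments and for both UTRs, with exact two-sided permutation p between 0.67 and 1.00.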

How the data were processed

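Per the labels and the methods, the authors clipped linkers, took off molecular identifiers and barcodes, discarded rRNA reads with Bowtie 1.1.2 and aligned the rest to transcripts of hg19 (GRCh37, GENCODE release 24) with TopHat2 2.1.1, keeping reads with several matches. No source says whether duplicate identifiers were collapsed. Plastid then gave the deposited counts per merged region, from reads of 26 to 36 nt placed 14 nt from their 5′ end per the file headers, although a 3′ offset is given in the methods. The deposited RPKM values were used only to work back to the alignments per library. Symbols come from GENCODE release 44 lifted to GRCh37 and matched 19612 of 20165 regions. Of the members, 18 have annotated pseudogenes (44 in all), so their counts are uncertain.

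Coding counts were fitted with DESeq2 1.42.0 in R 4.3.3, following the methods, on the 4 libraries of a comparison, for genes with at least 10 summed counts. Calls were made at p under 0.05 after Benjamini-Hochberg adjustment over all genes tested. Of the genes tested in siTARG1, 935 got no adjusted p and were not called. The script was tested on simulated data. Alternatives included edgeR 4.0.16, other scalings and filters, exon counts, a fit of all 8 libraries, thinning and leaving out each library. The fit without joined regions was chosen after seeing the data. Normalized counts are counts divided by size factors. Intervals are 1.96 SE and cover the fit only. RNA-seq was not analysed here, so a change in footprints is not one in translation efficiency, and fewer cells and less mRNA per cell cannot be told apart.

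The members and lists were chosen with earlier results of these data known. Named are all called members, the catalytic, immunoproteasome and assembly subunits, PSME1, PSME2, the highest and lowest member of each role in each comparison, called genes of the lists, OARD1 and RACK1. Other names (such as UCHL5, TAP1, DDI2 and VCP, and density examples) were chosen after their values were seen. A gene of each list is not reported here. RefSeq promoters (GRCh38) were read for motifs only.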

Additional observations from a re-analysis of the deposited data

How the results depend on the processing

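In siTARG1 the number of members called was 20 by edgeR (8 higher, 12 lower, with all 11 of DESeq2 among them) and 4 with the replicate number as a block (1 higher, 3 lower). It ranged from 2 to 3 with each library left out. It stayed between 10 and 16 under the other alternatives. For the difference between the comparisons, edgeR gave 11, the replicate block 3, thinning to equal depth 4, and leaving out a library 2 to 5, against 7. In RACK1-Mut the count was 0 under every alternative run. Over all genes, edgeR called 3470 in siTARG1 and 30 in RACK1-Mut, the block 1125 and 6, and the fit of 8 libraries 2747 in siTARG1. Same-numbered libraries correlated by 0.0307 (siRNA) and 0.0832 (RACK1) in their deviations, so the numbers were not treated as pairing the samples. The share of alignments counted in exons did go with the number in the siRNA experiment. It was 41.44% (siControl) and 37.08% (siTARG1) in replicate 1, and 28.8% and 27.76% in replicate 2. The labels name no batch, and what this pattern reflects was not tested. USP14, PSME4, PSMB9 and PSMC1 were the members called under the block. When a library is left out, the lone one of its group is assumed to vary like the others.

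The median log2 fold change of the members kept its sign under all alternatives, from -0.071 to -0.050 in siTARG1 and from -0.088 to -0.018 in RACK1-Mut with a library left out. As a median over members, the change in 5′ UTR share in siTARG1 was 0.124 percentage points in place of -0.044, and that in 3′ UTR share 0.074 in place of 0.011. The coefficient of variation of density among ring subunits averaged 42.3% by coding length and 72.3% by exon counts per exon length, which include UTRs.

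Signs of members that were not called turned in places. After thinning, PSMB5 stood at 0.005 and PSMB8 at -0.011 in siTARG1. With a library left out, values in siTARG1 ran from -0.028 to 0.053 for POMP, -0.389 to 0.008 for PSMA6, -0.115 to 0.091 for PSMB5, -0.153 to 0.041 for PSMB7, -0.027 to 0.063 for PSMB8, -0.130 to 0.087 for PSMF1 and -0.546 to 0.166 for PSMG4. In RACK1-Mut they ran from -0.245 to 0.010 for POMP, -0.019 to 0.124 for PSMA1, -0.084 to 0.028 for PSMB1, -0.221 to 0.004 for PSMB10, -0.051 to 0.016 for PSMB2, -0.100 to 0.072 for PSMB7, -0.152 to 0.014 for PSMB9, -0.149 to 0.090 for PSMC2, -0.060 to 0.029 for PSMD1, -0.001 to 0.155 for PSMD5, -0.027 to 0.165 for PSME3, -0.081 to 0.011 for PSME4, -0.034 to 0.228 for PSMG1, -0.148 to 0.010 for PSMG2, -0.259 to 0.097 for UCHL5 and -0.130 to 0.000 for USP14. Depth limits PSMB9 and PSMG4 most, with the fewest counts among the members.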

Other observations

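PSMC3IP, a recombination cofactor, and PSME3IP1, a partner of PSME3, entered only through their names. PSMC3IP had 29.0 and 19.07 normalized counts in siControl and 23.31 and 39.36 in siTARG1, groups that overlapped. PSME3IP1 had 130.1 and 95.36 in siControl and 82.4 and 93.34 in siTARG1, which did not overlap, and stood at -0.37 on the log2 scale (SE 0.290, adjusted p = 0.441 by DESeq2). In RACK1-Mut they stood at -0.08 and -0.09 and were not called.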
